A study of Zea mays with 24 samples.

Results

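NAC domain proteins form a large family of plant transcription factors, which bind DNA through a conserved domain at the amino end. Several members in cereals and in Arabidopsis are known to respond to drought, salt, cold and the hormone abscisic acid, and others act in root development and senescence. The maize gene described here is measured by 1 probe, MZ00022590 (name TC256960), printed at 1 spot of the array (block 17, row 20, column 26). The study's annotation gives its product as a putative NAC domain protein NAC1, by similarity to a rice protein. The probe is 1 of 43393 maize probes. It was picked by its ID, and it had been selected on its cold over control ratios on these same arrays, so that its values are given as a description without a test. TC256960 matched no entry of the maize reference table used here (Zm-B73-REFERENCE-NAM-5.0), in which 3 genes carry NAC1 as a symbol or synonym. The probe therefore could not be assigned to one of them, and no chromosome position is given. No other probe had a name with the word NAC in it, but such a search could hardly find one. The name of this probe does not hold the word either, and only 175 probe names matched the reference table. Whether other NAC genes are on the array was therefore not settled.

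The probe was measured in RNA of the primary root of germinating seedlings of 4 commercial maize varieties, kept in the dark. Cold seedlings had 16 h at 12 °C and 8 h at 6 °C, and control seedlings had a cool regime of their own, with a warm period at 18 °C and a cool period at 12 °C, so that all the roots were below the optimum for maize. By growth under chilling, Picker and PR39B29 were the more tolerant of the 4, and Codisco and Fergus the less tolerant. The study's methods place the harvest on day 1 after germination and the sample labels on day 8. RNA of 3 independently grown replicates was hybridised to 24 arrays with 2 colours, 1 loop of 8 arrays for each replicate. Each loop had 4 direct arrays, on which both RNAs came from one variety. The other 4, called linking arrays here, set Fergus cold against Picker control, Picker cold against PR39B29 control, PR39B29 cold against Codisco control, and Codisco cold against Fergus control.

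The measurement is the M-value, the log2 ratio of the 2 RNAs of an array, and it is given throughout as cold over control. It holds no level of a single RNA, and neither the brightness of the probe nor markers of root tissue were analysed here. The probe had a value on all 24 arrays, as 9458 maize probes did. The arrays differed in how many maize probes had a value (18268 to 43108) and in the spread of their ratios (scaled median absolute deviation 0.454 to 1.23). The direction of the ratios is likely, and not settled. By the dye labels, Cy5 always marked the cold RNA. In the titles the control RNA comes first for direct arrays but second for linking arrays. The ratios were read in the order of the titles, and under the dye labels every direct value below has the opposite sign. Both readings of the direct arrays are set against the linking arrays below. Turning round direct and linking arrays together would reverse every sign and leave that comparison unchanged. A dye effect of the probe is part of each ratio. By the dye labels all arrays had one orientation. In title order the direct and the linking arrays had opposite ones, so that such an effect would enter their ratios with opposite signs, while among the direct arrays alone it cannot be told apart from the effect of cold.

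NAC1 was higher in cold than in control roots on all 12 direct arrays, in each of the 4 varieties. The log2 ratio averaged 2.09 ± 0.75 (SD, n = 12 arrays), a 4.27-fold difference, and it ranged between 1.11 and 3.40. In Picker the ratios were 2.48, 1.84 and 2.03 in replicates 1, 2 and 3, with a mean of 2.12 ± 0.33 (SD, n = 3). In PR39B29 they were 1.11, 1.25 and 2.37 (mean 1.57 ± 0.69, SD, n = 3). Replicate 3 was the highest there, and the other values of PR39B29 were the lowest of the 12. In Fergus the ratios were 1.99, 2.39 and 1.53 (mean 1.97 ± 0.43, SD, n = 3). In Codisco they were 1.38, 3.40 and 3.37 (mean 2.72 ± 1.16, SD, n = 3). Replicate 1 of Codisco lay within the range spanned by the other varieties, and its replicates 2 and 3 lay above every other direct array.

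**Figure D1:**
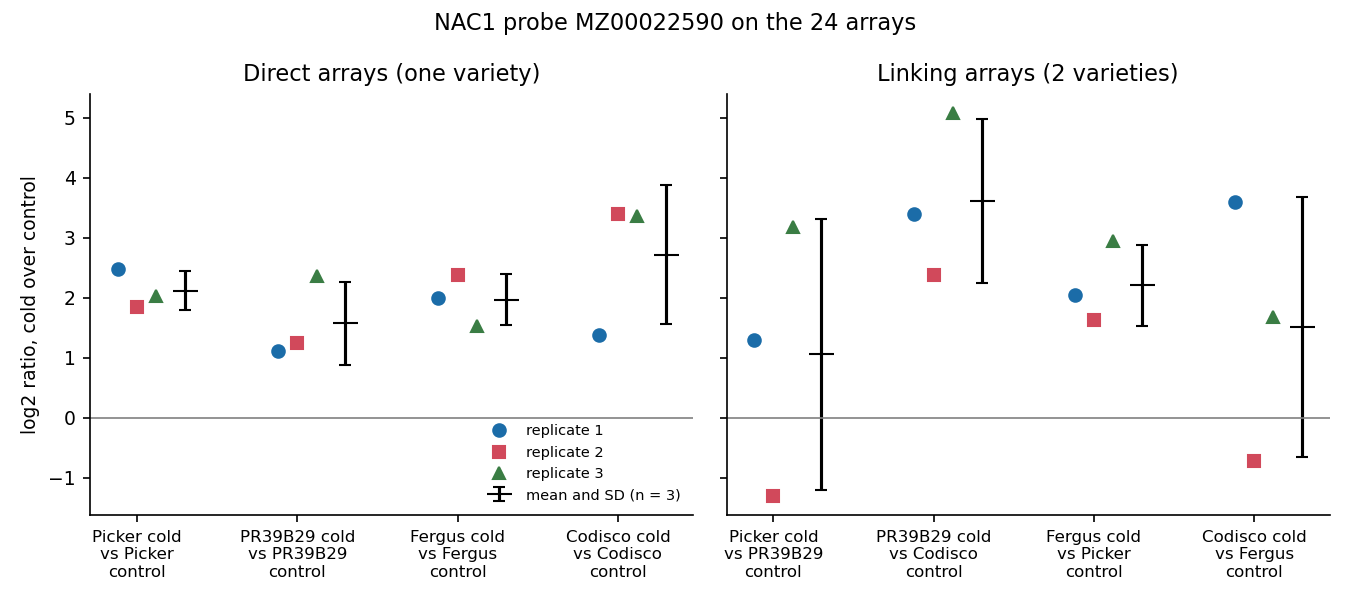
Log2 ratio of cold over control for the NAC1 probe on each array, by pair of RNAs (direct arrays left, linking arrays right), with replicates as points and the mean and SD of 3 arrays as bars. All 12 direct values lie above 0, and 10 of 12 linking values do, the other 2 being in replicate 2.

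The means of the 4 varieties had an SD of 0.47, against a pooled SD of 0.73 between replicates of one variety (the median over probes of this pooled SD was 0.58). The ranges of all 6 pairs of varieties overlapped. The widest gap, PR39B29 minus Codisco, was -1.14 with a standard error of 0.78. Taken within replicates 1, 2 and 3 it was -0.27, -2.16 and -1.001, with a standard error of 0.55, and it was the only 1 of the 6 pairs with one sign in all replicates. The mean ratio of Picker exceeded that of PR39B29 by 0.54 with a standard error of 0.44, and that of Fergus by 0.15 with a standard error of 0.31. The tolerant varieties lay neither both above nor both below the less tolerant ones.

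Part of the range went with the spread of the arrays themselves. The 2 high Codisco values came from arrays with wide distributions, and when the distance of each value from the median of its own array was divided by the scaled median absolute deviation of that array, the Codisco arrays stood at 2.76, 3.08 and 2.83 such units in replicates 1, 2 and 3. Over all 12 direct arrays NAC1 stood 1.73 to 3.23 units above the array's median. With the arrays centred and scaled to one spread, the mean of the direct arrays was 2.15 ± 0.39 (SD, n = 12), and that of Codisco was 2.40 ± 0.14 (SD, n = 3).

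The place of the probe among all maize probes of an array is not changed by scaling the array. It does depend on which probes have a value there. In Picker replicate 1, for example, it was percentile 95.9 among all probes and 99.6 among those measured on all 24 arrays. By ratio, NAC1 lay between percentiles 93.0 and 99.1 of the direct arrays (median 97.2), and above percentile 95 on 10 of them. Its lowest place was in Fergus replicate 3, at rank 2257 of 32392 probes, and its highest in Picker replicate 3, at rank 170 of 18940. The linking arrays gave percentiles 94.7 to 99.3 on 10 arrays, and percentiles 5.45 and 7.59 on the other 2. Against the probes measured on all 24 arrays the medians were 98.1 on direct and 99.2 on linking arrays.

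**Figure D2:**
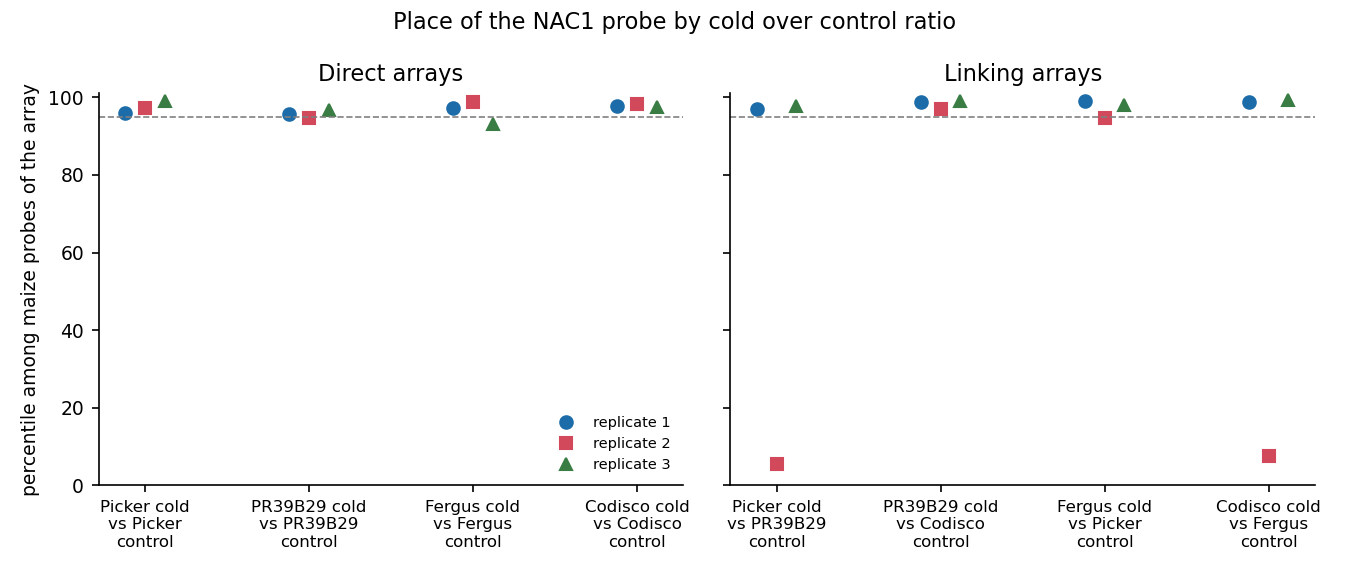
Percentile of the NAC1 probe among the maize probes with a value on each array, ordered by log2 ratio of cold over control, with a dashed line at percentile 95. Of 24 arrays 19 lie above the line and 2 linking arrays of replicate 2 lie below percentile 10.

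A ratio above 0 on every direct array was found for 592 of the 12708 maize probes with a value on all of them (4.66%), and below 0 on every one for 341. Among the 12708 probes NAC1 had the 48th highest mean and the 12th highest minimum, since even its lowest direct ratio, in PR39B29 replicate 1, was 1.11. These ranks come from the values the probe was selected on and are no test. Of the 9458 probes measured on all 24 arrays, 189 (2.00%) were above 0 on all direct and on at least 10 linking arrays, NAC1 among them. No probe was above 0 on all 24, which 2 arrays of replicate 2 described below nearly fix, since they carry almost the same deposited values and are read with opposite signs. On the 22 arrays other than the 2 negative linking arrays of replicate 2, 154 of the 9458 probes (1.63%) were above 0 throughout. Of these 154 probes, 125 were below 0 on both of the arrays left out, which were picked by the sign of NAC1.

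On linking arrays the ratio of cold over control also contains the difference between 2 varieties. The cold RNA was higher for NAC1 on 10 of 12, and the log2 ratio averaged 2.10 ± 1.80 (SD, n = 12). Fergus cold over Picker control gave 2.05, 1.63 and 2.94 in replicates 1, 2 and 3 (mean 2.20 ± 0.67, SD, n = 3). PR39B29 cold over Codisco control gave 3.39, 2.38 and 5.09 (mean 3.62 ± 1.37, SD, n = 3), the highest mean of the 8 pairs. Replicate 3 of this pair held the highest ratio of all 24 arrays, 34.0-fold. The remaining pairs had replicates on both sides of 0. Picker cold over PR39B29 control gave 1.30, -1.31 and 3.18 (mean 1.06 ± 2.26, SD, n = 3). Codisco cold over Fergus control gave 3.60, -0.72 and 1.68 (mean 1.52 ± 2.17, SD, n = 3).

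The 2 negative values came from arrays of replicate 2 that ran against the rest for many probes besides NAC1. One of them, with Picker cold and PR39B29 control, was nearly a copy of another array. As deposited its M-values correlated at r = 0.987, across 22672 probes, with the direct array of PR39B29 of replicate 2, whereas the next closest pair of the 24 had r = 0.820. NAC1 was at -1.31 and -1.25 on this pair as deposited, and since the ratios of direct arrays are turned round, the pair has opposite signs as cold over control. Both arrays were kept as labelled. Against the mean of the other 11 direct arrays, across 9458 probes, the array of Picker cold and PR39B29 control had a Spearman correlation of -0.21 and that of Codisco cold and Fergus control one of -0.30, against 0.09 to 0.60 for the other 10 linking arrays. Of 544 other probes above 0 on those 11 direct arrays, 6.07% and 27.8% were above 0 on these arrays, in the same order, against 65.1% to 95.4% on the other 10. The 2 negative arrays were picked by the sign of NAC1 itself, so that leaving them out raises its means by construction. Without the 2 negative arrays the linking ratio averaged 2.72 ± 1.15 (SD, n = 10), or 6.61-fold. Without them the pairs they belong to averaged 2.24 ± 1.34 for Picker cold over PR39B29 control and 2.64 ± 1.36 for Codisco cold over Fergus control (SD, n = 2 each). Without its direct array of replicate 2, PR39B29 averaged 1.74 ± 0.89 (SD, n = 2).

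In a closed loop the 4 direct and the 4 linking arrays hold the same 4 cold and the same 4 control RNAs, so that both means estimate one quantity. For NAC1 the direct mean was 1.74 and the linking mean 2.58 in replicate 1. In replicate 2, which holds the 2 arrays just described, they were 2.22 and 0.49, and in replicate 3 they were 2.32 and 3.22. The gaps, direct minus linking, of -0.84, 1.73 and -0.90 were wider than those of 96.8%, 98.0% and 97.3% of the 9458 probes. Most of those probes had a smaller ratio than NAC1, and probes of like ratio were not compared. Each gap holds the errors of both means. Across the 9458 probes, direct and linking means had a Spearman correlation of 0.69, 0.38 and 0.82 in replicates 1, 2 and 3 when read in title order, and correlations of the same size below 0 when read by the dye labels. Direct and linking arrays thus ran together in title order and against each other by the dye labels. A reversal of all arrays together cannot be seen in this way.

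**Figure D3:**
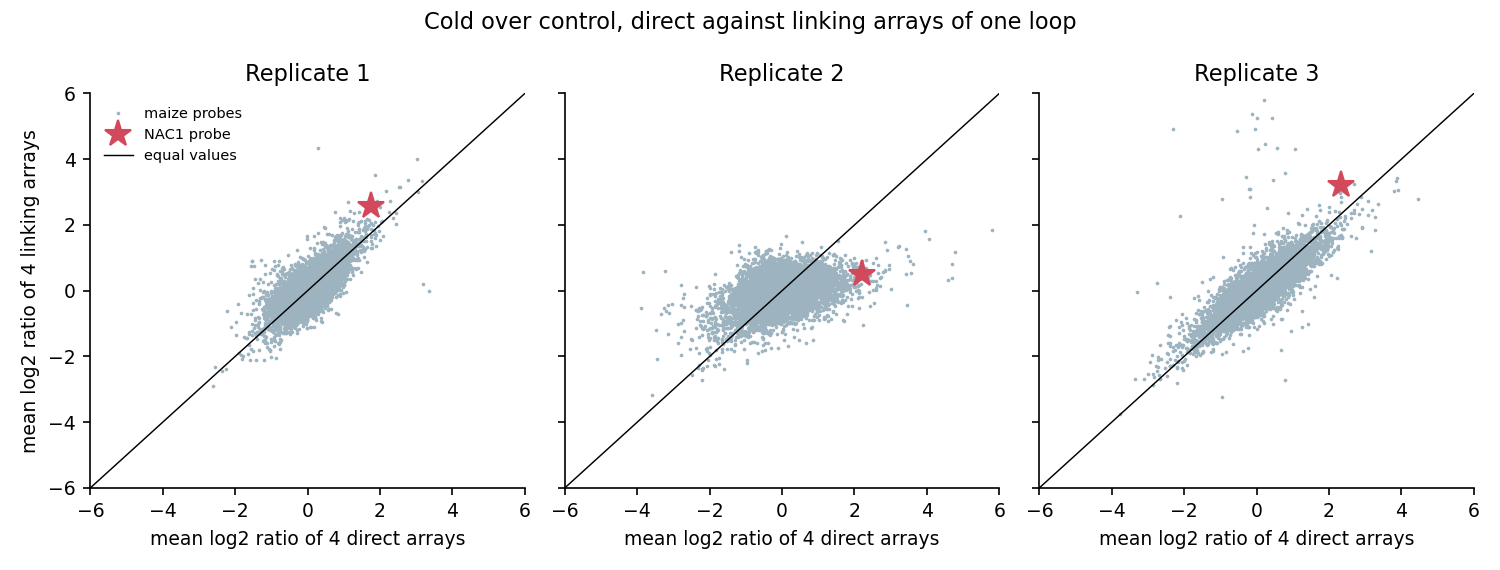
Mean log2 ratio of cold over control of the 4 direct arrays (x axis) and of the 4 linking arrays (y axis) of each replicate, for 9458 maize probes and for NAC1 (star), with the line of equal values; 2 probes of replicate 3 lie outside the axes. NAC1 lies in the upper right part of each panel, above the line in replicates 1 and 3 and below it in replicate 2.

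Taking each RNA to be the same on its direct and its linking array, the 8 arrays of a loop give by least squares the level of NAC1 in each variety and regime relative to the mean of the 8 RNAs. On this log2 scale the level was highest in PR39B29 cold (1.51 ± 0.58), followed by Fergus cold (1.07 ± 0.85), Picker cold (0.99 ± 0.81) and Codisco cold (0.62 ± 0.37). The control RNAs came next, with PR39B29 at -0.06 ± 0.97, Fergus at -0.90 ± 1.26, Picker at -1.13 ± 0.35 and Codisco at -2.10 ± 1.05 (each SD over n = 3 loops). The 4 cold RNAs thus had the 4 highest means. No neighbours in this order could be separated, since in each of the 7 neighbouring pairs the higher one was ahead in only 2 of 3 loops.

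**Figure D4:**
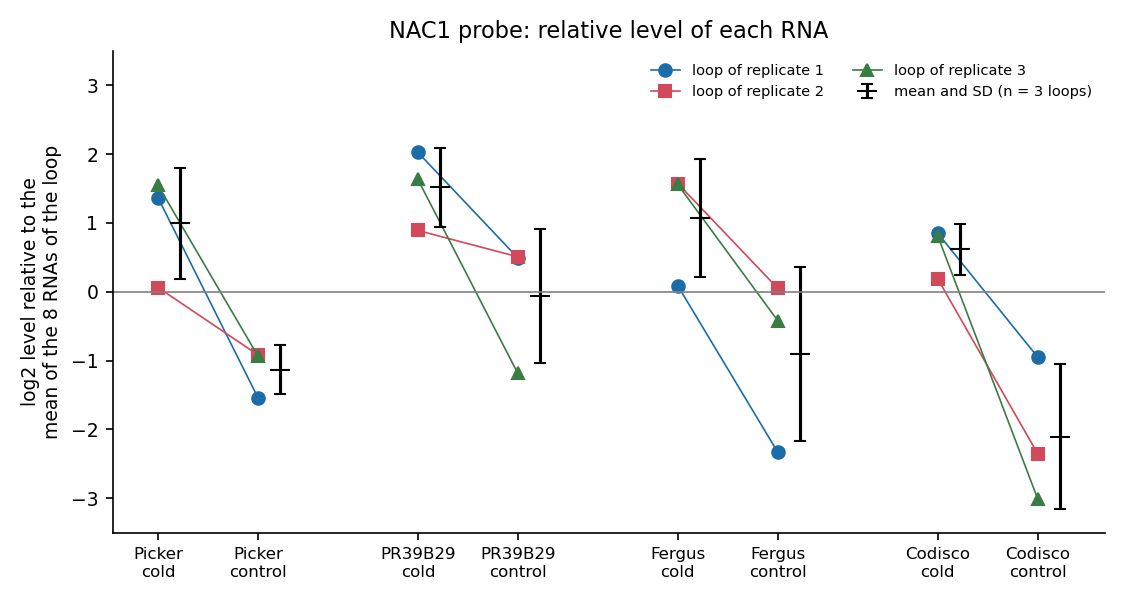
Log2 level of the NAC1 probe in each of the 8 RNAs relative to the mean of its loop, with the 3 loops as points, lines joining cold and control RNA of one variety in one loop, and bars for the mean and SD of 3 loops. Every line falls toward the control RNA, while the points of different varieties overlap.

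Within a variety, the cold level exceeded the control level in every loop. In this fit that difference is the direct ratio of the variety shifted by one amount per loop. The shifts follow the gaps between direct and linking means, of which that of replicate 2 had the other sign. They nearly cancelled over the 3 loops, so that the means of the difference came close to the direct means and only its spread is new. Picker had a difference of 2.12 ± 1.01 and PR39B29 one of 1.58 ± 1.22. Fergus had 1.97 ± 0.45 and Codisco 2.72 ± 1.02 (SD, n = 3 loops each). The smallest of the 12 was 0.38, in PR39B29 in replicate 2. PR39B29 had both the highest cold and the highest control mean, and Codisco both the lowest cold and the lowest control mean. In the loops of replicates 1, 2 and 3 PR39B29 cold ranked 1, 2 and 1 of 8, and Codisco control ranked 6, 8 and 8. The level of PR39B29 control was less stable, at 0.49, 0.51 and -1.19 in replicates 1, 2 and 3. These orders lean on the arrays of replicate 2 named above. Without the array of Picker cold and PR39B29 control, Picker cold averaged 2.00 and PR39B29 control -1.07. Without the direct array of PR39B29, PR39B29 cold averaged 0.51 and PR39B29 control 0.94, so that control exceeded cold. The loop of replicate 2 alone made this reversal. Its PR39B29 difference then came from the other arrays of the loop, the negative linking arrays among them. In the loops of replicates 1 and 3 PR39B29 cold stayed above control, by 1.53 and 2.82. Whole tissue was extracted, so that more RNA per cell and more cells with the transcript cannot be told apart.

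The 2 groups of genes set beside NAC1 were taken, as NAC1 was, from the study's list of genes it called in PR39B29 on these same arrays. Their tests are therefore no independent evidence of a direction. The first holds 5 probes for proteins linked to water stress or abscisic acid. Over the 4 varieties, 4 of the 5 could be tested with limma on the 12 direct arrays, and all 4 rose in the cold. Of the 2546 genes tested, 27.8% rose, 24.5% fell and 52.4% thus passed the threshold in either direction. The median log2 ratio of the 4 probes was 2.76, against -0.22 over all genes tested. The 2546 genes had been filtered by the variance of ratios as deposited, which favours genes with a steady response to cold. Without that filter 3 of the 4 probes rose, while of 12708 genes tested 1987 rose and 1579 fell. MZ00041500, annotated as similar to a protein induced by water stress, had a log2 ratio of 3.03 with a standard error of 0.42 (limma adjusted p = 2.72e-04). MZ00042906 and MZ00042908 both resemble the rice protein r40g3, a member of a family known in rice roots for its response to abscisic acid, and they may share signal. Their log2 ratios were 2.85 and 2.68, with limma adjusted p = 5.94e-04 and 0.00100. MZ00023411, similar to a drought-inducible protein of sugarcane, had 0.94 with a standard error of 0.36 (limma adjusted p = 0.0428). Its mean was 2.28 ± 1.53 in PR39B29 and 1.21 ± 1.68 in Picker, with 0.26 ± 0.97 in Codisco and 0.03 ± 1.31 in Fergus (SD, n = 3 each). It missed the threshold without replicate 2, without replicate 3 and without the direct array of PR39B29 of replicate 2. The fifth probe, MZ00041306, named as a putative ASR2 (a small protein induced by abscisic acid, stress and ripening), lacked a value on 1 direct array. It averaged 2.92 on the other 11 and was above 0 on 10 of them.

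The second group holds 4 proteases, which break down proteins, and only the aspartic proteinase MZ00043603 had all 12 direct values. It rose in the cold, with a log2 ratio of 2.65 and a standard error of 0.33 (limma adjusted p = 1.37e-04). The metacaspase MZ00032919, of a family known for roles in plant cell death, averaged 3.18 on 9 direct arrays and was above 0 on all 9. The legumain-like protease MZ00041333 and the C13 endopeptidase MZ00041334, of a type active in vacuoles, averaged 2.18 and 2.09 on 10 direct arrays and were above 0 on all 10. Codisco had only 1 value for each of the probes with missing values. It was 1.99 for the metacaspase, 1.17 for the legumain-like protease and 0.72 for the C13 endopeptidase. The NAC1 mean of 2.09 lay within the range of the direct means of these 9 probes of both groups (0.94 to 3.18), a comparison of differences and not of levels. NAC1 and these probes came from one list of called genes, so that means of like size follow from the selection. The means also cover unequal numbers of direct arrays.

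The probes most like NAC1 were sought by Pearson's r of percentile ranks over the 24 arrays, among 9457 other probes with a value on all of them. The median r was 0.03, and the 10 highest lay between 0.970 and 0.997. All 10 were above 0 on the 12 direct and on 10 linking arrays. The first was MZ00041500 (r = 0.997), described above, and the second MZ00022876 (r = 0.987), a hypothetical protein with a mean direct ratio of 2.49. The aspartic proteinase MZ00043603 (r = 0.976) was the sixth. MZ00016581 (r = 0.974), with a mean direct ratio of 2.16, is NIP2-1, a channel protein of the NOD26-like family, whose members in cereals are known to carry silicic acid. The remaining 6 probes, MZ00023919, MZ00005287, MZ00028694, MZ00043552, MZ00023874 and MZ00024550, were given no product in the sources used here.

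This likeness rested on 2 arrays. The arrays of a loop share their RNAs, so that the 24 points are not independent. NAC1 ranked near the top on 22 of them and near the bottom on the 2 negative linking arrays of replicate 2. Without those 2 arrays the r of the 10 probes fell to between -0.15 and 0.35, and 0 of the 10 were among the 10 most like NAC1. The highest r of any probe was then 0.689, for MZ00034981, whose mean direct ratio was 0.14.

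**Figure D5:**
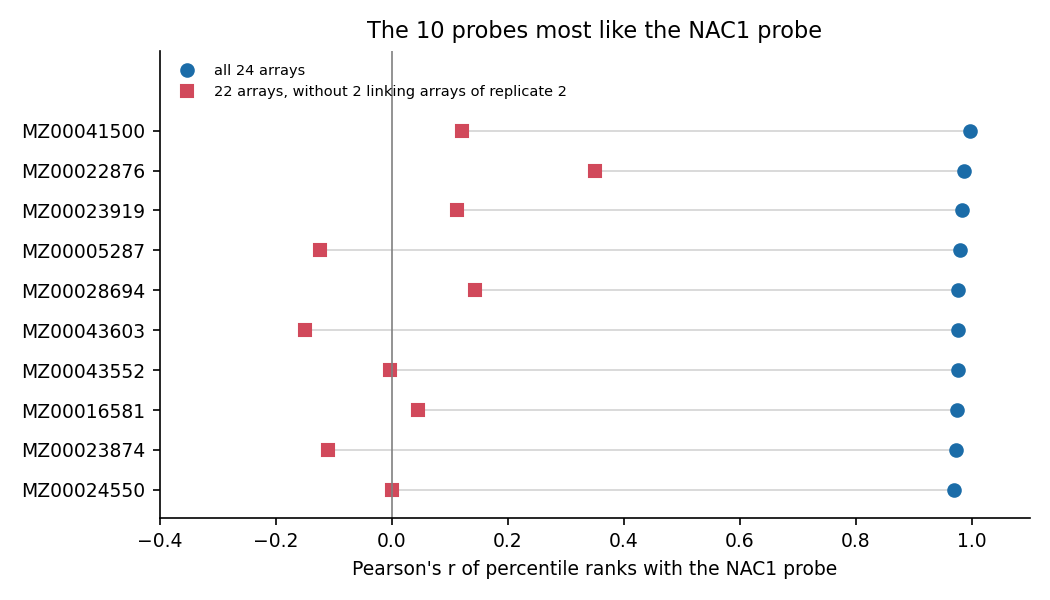
Pearson's r of percentile ranks between the NAC1 probe and each of the 10 probes most like it, over all 24 arrays (circles) and over 22 arrays (squares). The circles lie between 0.970 and 0.997 and the squares between -0.15 and 0.35.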

How the data were processed

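Slides were read on a GenePix scanner. In CARMAweb, a front end to limma, the authors report the minimum background method, print-tip loess within arrays and scaling between arrays. They excluded bad spots and deposited a log2 ratio for each spot. The deposited ratios still differed in spread between arrays (scaled median absolute deviation 0.454 to 1.23). Software versions of the authors were not given in the sources used here. Spots were named through a second deposited table, of which 96 columns of slide values with names that match no sample label were not used. Spots of one probe were averaged. Direct ratios were multiplied by -1 and linking ratios kept. Percentiles were taken among the maize probes with a value on an array. The response common to the varieties was tested with limma 3.58.1 in R 4.3.3 on the 12 direct arrays, fitting one mean per variety, over the 2546 genes that had all 12 values and were among the 40% with the largest variance over the 24 arrays, with Benjamini and Hochberg adjustment and a threshold of 0.05. The test was tried on simulated data. The number of arrays limits the precision. The probe, the lists and the tests were chosen with earlier results of these data known. The named genes were NAC1, probes named NAC, the 2 lists and the 10 probes most like NAC1. Alternatives were the dye labels, scaled arrays, medians, other likeness measures, no variance filter, a replicate block and arrays or replicates left out.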

Additional observations from a re-analysis of the deposited data

How the results depend on the processing

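Read by the dye labels, the direct means of NAC1 were -2.12 in Picker, -1.57 in PR39B29, -1.97 in Fergus, -2.72 in Codisco and -2.09 over all, and the relative levels were -0.28 in Picker cold, -0.15 in Fergus cold, -0.85 in Codisco cold, -0.26 in Picker control, 0.76 in PR39B29 control and -0.24 in Codisco control. Leaving out each replicate in turn gave 1.98 to 2.27 over all direct arrays and 1.54 to 2.90 over all linking arrays, and -0.0064 to 2.24 for Picker cold over PR39B29 control, which turned below 0 without replicate 3. Of 54 alternative values of the mean ratios, 48 kept their sign and moved by less than the SD of the arrays.

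Relative levels moved with single arrays of replicate 2, through the loop of that replicate alone. Without the linking array of Codisco cold and Fergus control, Codisco cold averaged 1.62, PR39B29 cold 1.95, PR39B29 control 0.08 and Picker control -1.56. Without the linking array of Picker cold and PR39B29 control, Picker cold averaged 2.00, PR39B29 cold 0.80, PR39B29 control -1.07 and Picker control -0.41. Without the direct array of PR39B29, PR39B29 cold averaged 0.51, Codisco cold 0.19, PR39B29 control 0.94 and Picker control -0.70. Leaving out each replicate in turn moved PR39B29 control between -0.35 and 0.50 and Picker cold between 0.71 and 1.46. The cause was not tested.

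Of the 10 probes most like NAC1, 1 was again among the first 10 by Spearman's rho of the ratios, 6 on linking arrays only, and 0 on direct arrays only or without the 2 negative linking arrays, while 8 were without the 2 near-identical arrays, and leaving out each replicate in turn kept 0 to 7.

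Over all genes, 1987 rose and 1579 fell without the variance filter, under which 12708 genes were tested, and leaving out each replicate in turn gave 212 to 1245 that rose and 139 to 1519 that fell. With the replicate number as a replicate block 763 rose and 808 fell, and the calls of the 5 tested list genes did not change. The numbers share no stated origin beyond the replicate, and deviations of same-numbered direct arrays correlated at -0.42 to 0.49 (median 0.27 over 18 pairs, 11 of them over 0.1), against a median of -0.15 for the 36 pairs with other numbers (11 of them over 0.1). Deviations were taken from the mean of each variety, which draws pairs with other numbers below 0 when same-numbered pairs lie above it. The medians are therefore not independent. MZ00023411 also missed the threshold without the variance filter.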
